A study of Anguilla anguilla with 12 samples.

Results

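The insulin-like growth factor (IGF) system comprises secreted IGF ligands, the cell surface receptors that bind them, and a family of IGF-binding proteins (IGFBPs) that carry the ligands and set how much of them reaches a receptor. Genes of the European eel (Anguilla anguilla) were taken as members where the annotated product contained the words insulin-like growth factor, together with igf3, and mRNA-binding proteins of similar name were left out. The rule gave 23 of 31061 genes, and 11 of the 23 had 50 or more raw counts over all 12 libraries and are described below. The study asked how a single injection of progesterone (P) or of DHP, which is the hormone 17α,20β-dihydroxy-4-pregnen-3-one that induces oocyte maturation in eels, acts on the transcriptome between oocyte and egg. Poly(A) RNA was read in 12 libraries, 3 per group. Libraries 1, 5 and 9 held oocytes sampled before P injection, and libraries 2, 6 and 10 eggs stripped after it. Libraries 3, 7 and 11 held oocytes sampled before DHP injection, and libraries 4, 8 and 12 eggs stripped after it. All 4 groups came from wild-type feminized females, which had been fed 17β-estradiol as elvers, had gone through a simulated migration, had received an implant with 17-methyltestosterone and 17β-estradiol, and were injected weekly with carp pituitary extract. The oocytes were selected from ovarian tissue taken by cannula. Histology of oocytes that the study used in culture showed some with their follicle cells and others without. For the sequenced oocytes the study reports no histology. The eggs had left the follicle. The change from oocyte to egg thus holds, for both steroids, the loss of the follicle, the passing of time and the injection, which cannot be told apart.

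In vertebrates IGFs act through the type 1 IGF receptor, a tyrosine kinase that signals by way of insulin receptor substrates to phosphatidylinositol 3-kinase, AKT and mTOR. Fish have a further ligand, IGF3, which is made mainly in the gonads, and which in zebrafish is expressed in the follicle cells under the control of gonadotropin and promotes the maturation of the oocyte. Free IGF is limited by the IGFBPs, which in turn are cleaved by proteases such as pappalysin and HTRA1.

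Library totals ran from 6612347 to 9903122 counted fragments. Levels are normalized counts, which are fragment counts scaled by library size and composition with the TMM method over all 12 libraries, so they compare 1 gene between libraries and not genes of different length with each other. Differentially expressed genes (DEGs) had an adjusted p under 0.01 in the quasi-likelihood test of edgeR, with Benjamini-Hochberg adjustment over all genes tested. Markers of the oocyte (37 genes) were present in all 4 groups, with a sum of 19818 to 34406 normalized counts in the 6 oocyte libraries and of 7804 to 14674 in the 6 egg libraries. Markers of follicle cells (19 genes) summed to 5014 to 14043 in the oocytes, so the libraries labelled oocyte also held transcripts of follicle marker genes. The cells that these transcripts came from were not tested. In the eggs they summed to 474 to 2594, of which a single 3 beta-hydroxysteroid dehydrogenase-like gene, LOC118214003, made up 78.9% after DHP and 93.8% after P on average. Without that gene, a choice made after its values were seen, the other 18 summed to 4594 to 13108 in the oocytes and to 93.9 to 299 in the eggs. In bulk RNA, fewer cells of a type and less RNA per cell cannot be told apart.

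The members covered very different depths. LOC118210713, a gene for IGFBP-5, held 30662 raw counts, while igfbp6b, which carries the gene for IGFBP-6, lay just inside the limit with 61 and igf2b, for IGF-II, just outside with 46. The ligand genes apart from igf3 had few counts in any group. Over the 12 libraries, igf2b had 46 counts, LOC118215239, also annotated as IGF-II, had 34, LOC118219087, annotated as an adult form of IGF-I, had 2 and igf1 had 1. Also under 50 counts were igfbp3 (33), LOC118233164 (IGFBP-3, 21), LOC118228285 (IGFBP-7, 17) and the acid-labile subunit genes si:dkey-182i3.11 (3), LOC118222627 (2) and LOC118216058 (1). LOC118221917, an acid-labile subunit gene, and LOC118232546, an IGFBP-related protein 1 gene, had 0 counts. None of these 12 genes was tested. On the assembly igf2b is overlapped over its whole span of 9377 bases by LOC118227842, a gene for a long noncoding RNA. Fragments of igf2b may thus have been lost or shared in counting, so its low count does not show that the transcript was absent. The IGF-II genes had most of their counts in oocytes. igf2b had 24 counts in oocytes before P against 1 in eggs after P, a 15-fold lower level with a 95% exact counting interval of 2.45 to 617, but 14 against 7 for DHP, the 7 all in a single egg library. LOC118215239 had 24 counts in oocytes before P and 10 before DHP against 0 in both groups of eggs. The 95% exact lower limits were 3.76-fold for P and 1.56-fold for DHP. With 3 counts over the group as the floor, the bounds were 5-fold and 2.32-fold. Without library 3 the bound for DHP was 0.746-fold, and without library 5 that for P was 3.09-fold.

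igf3 was the only ligand gene with a measurable level, and it was present in the oocytes and all but gone in the eggs. It lies on chromosome 11 from 39147361 to 39156493 of the fAngAng1.pri assembly. In oocytes before P injection its normalized counts were 245, 270 and 104 in libraries 1, 5 and 9, and in eggs after P injection they were 0 in libraries 2, 6 and 10. In oocytes before DHP injection they were 562, 418 and 160 in libraries 3, 7 and 11, and in eggs after DHP injection 0, 3.84 and 0 in libraries 4, 8 and 12. Oocyte and egg libraries thus did not overlap in either treatment, and the 3 raw counts found in eggs all came from library 8. After P only a bound can be given, since the eggs had 0 counts (859 counts in oocytes). Taking 3 counts over the group as the floor, the bound was 179-fold lower in eggs. Without library 5 that bound was 150-fold. These bounds are no estimates of the fall and do not compare in size with the value for DHP. The 95% exact lower limit, which covers counting error only, was 145-fold. After DHP the level was 316-fold lower, with a 95% exact interval of 108 to 1536 that covers counting error only (1362 counts against 3). Both changes were DEGs, with an adjusted p of 0.0001 after P and 0.00191 after DHP from edgeR. After DHP the call was lost without library 12, at an adjusted p of 0.0101.

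**Figure D1:**
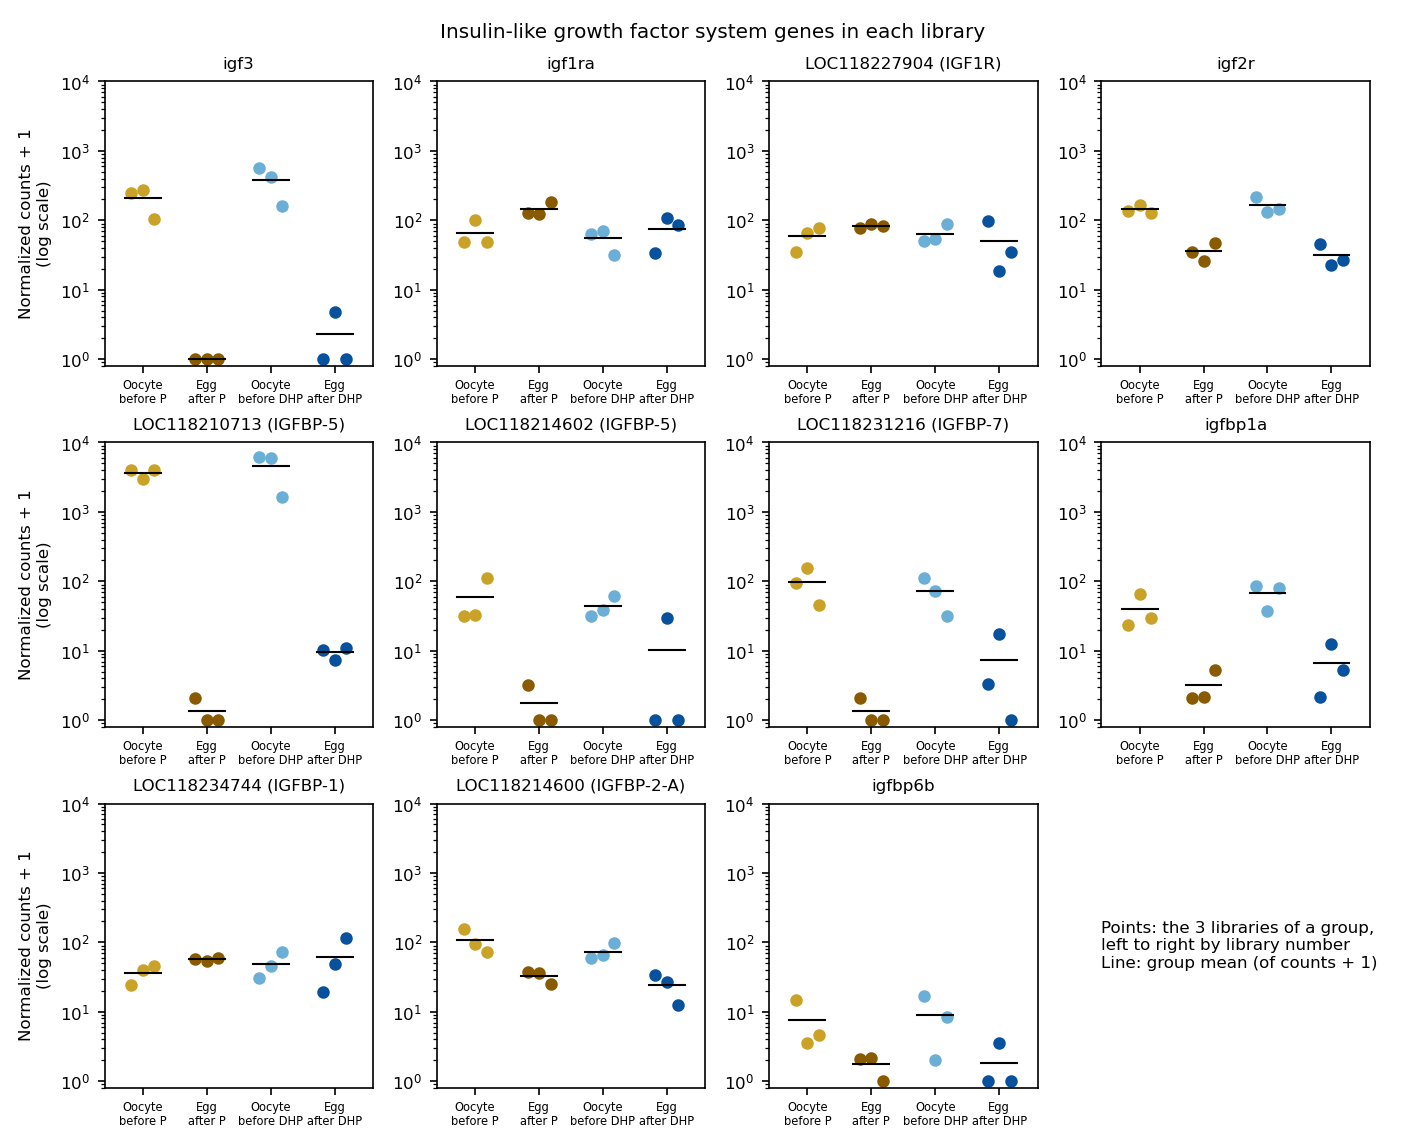
Normalized counts plus 1 (log scale) of the 11 members in each of the 12 libraries, with 1 point per library and a line at the mean of each group of 3. igf3 and the IGFBP-5 gene LOC118210713 sit high in all 6 oocyte libraries and at or near 0 in the eggs, while igf1ra, LOC118227904 and LOC118234744 are found in oocytes and eggs alike.

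Transcripts of the type 1 receptor, through which IGF signals enter the cell, were detected in every egg library. igf1ra (chromosome 16 from 11205315 to 11302110) had 48.0, 99.6 and 48.4 normalized counts in oocytes before P and 128, 121 and 181 in eggs after P. All 3 eggs lay above all 3 oocytes, but the change of 1.1 ± 0.44 (SE) on the log2 scale did not pass the threshold (edgeR, adjusted p = 0.0558). After DHP the groups overlapped, with 63.1, 70.1 and 30.3 in oocytes and 32.4, 108 and 85.2 in eggs (log2 fold change 0.39 ± 0.61, adjusted p = 0.639 from edgeR). The other receptor gene, LOC118227904 (chromosome 5 from 20682986 to 20807332), had 33.5, 65.8 and 76.6 normalized counts in oocytes before P, and 76.2, 86.7 and 81.3 in eggs after P. The highest oocyte lay between the eggs (log2 fold change 0.45 ± 0.46, adjusted p = 0.426 from edgeR). After DHP this gene varied widely among the eggs, with 97.3 in library 4 against 17.9 and 34.1 in libraries 8 and 12, and the oocytes at 49.6, 53.1 and 86.9 lay within that span (log2 fold change -0.42 ± 0.68, adjusted p = 0.658 from edgeR).

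The higher level of igf1ra in eggs after P kept its sign under each scaling, while the other receptor differences turned with it in part. With TMM scaling the median over all genes tested was -0.20 after DHP and -0.26 after P on the log2 scale. With scaling by total counts it was -0.80 and -1.01, and with scaling on the oocyte markers 1.47 and 1.39. With total counts igf1ra had 0.34 after P and -0.24 after DHP, and LOC118227904 had -0.29 after P. With scaling on oocyte markers both receptor genes were DEGs higher in eggs after P, at 2.70 for igf1ra (adjusted p = 0.000938) and 2.09 for LOC118227904 (adjusted p = 0.00316, both from edgeR). The same scaling called 6512 of all genes higher after P and 1199 lower.

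The gene for the mannose-6-phosphate receptor, igf2r, whose product sorts lysosomal enzymes and in mammals also clears IGF-II, fell in both treatments. It lies on chromosome 6 from 52673847 to 52708413. Its normalized counts were 136, 165 and 126 in oocytes before P and 33.6, 24.9 and 46.2 in eggs after P, and the groups did not overlap. In oocytes before DHP they were 213, 132 and 144, and in eggs after DHP 45.2, 21.8 and 25.6, again without overlap. On the log2 scale eggs differed from oocytes by -2.05 ± 0.43 after P (adjusted p = 0.00267) and by -2.47 ± 0.52 after DHP (adjusted p = 0.00797, both from edgeR). Unlike igf3 it stayed detectable, at 17.5% to 32.5% of the oocyte mean in the P eggs and 13.4% to 27.7% in the DHP eggs. These calls were near the threshold. After DHP the call was lost when any 1 of the 6 libraries was left out (adjusted p from 0.0111 to 0.0301), after P without library 2, 5 or 6 (highest adjusted p = 0.0127), and with scaling on oocyte markers in both (-0.83 after DHP and -0.40 after P on the log2 scale).

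IGFBP-5 binds IGFs and attaches to extracellular matrix, and its gene LOC118210713 was by far the most deeply counted member. It lies on chromosome 13 from 13121129 to 13128463. Oocytes before P had 3982, 2966 and 4066 normalized counts in libraries 1, 5 and 9, and eggs after P had 1.12, 0 and 0. Oocytes before DHP had 6238, 5998 and 1653 in libraries 3, 7 and 11, and eggs after DHP had 9.27, 6.41 and 9.94. The lowest oocyte, library 11, thus stood far above every egg. After P the fragments fell from 14325 to a single count, an 8953-fold lower level with a 95% exact counting interval of 1607 to 353635 (adjusted p = 2.71e-06, edgeR). After DHP 20 counts were left over the 3 egg libraries, a change of -9.13 ± 0.67 on the log2 scale (edgeR, adjusted p = 0.000688). These calls held when any 1 library was left out, at adjusted p values up to 0.00864 after DHP and up to 7.32e-05 after P.

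A second IGFBP-5 gene, LOC118214602, was at or near 0 in all egg libraries but library 8. It lies on chromosome 15 from 2702651 to 2718067. Its normalized counts were 30.5, 31.3 and 112 in oocytes before P against 2.24, 0 and 0 in eggs after P (212 counts against 2). This is a 66.2-fold lower level with a 95% exact counting interval of 18.1 to 551, or 38.4-fold without library 9, and a DEG (adjusted p = 0.00138, edgeR). In oocytes before DHP they were 30.8, 38.0 and 61.5, and in eggs after DHP 0 in libraries 4 and 12 but 28.2 in library 8. Every DHP egg lay below every DHP oocyte, library 8 by the least. The change was -2.29 ± 1.26 on the log2 scale (adjusted p = 0.185), and -8.50 without library 8 (adjusted p = 0.00670, both from edgeR). Library 8 held 64.9% of the oocyte mean of this gene. The same library had the highest sums among the DHP eggs of follicle markers, at 21.7% of the oocyte mean (4.54% without LOC118214003), of vessel and smooth muscle markers, at 6.13%, of stroma markers, at 12.3%, and of oocyte markers, at 50.3%. Blood markers were instead highest in library 12, at 66.7%, against 36.1% in library 8. The part of these marker sums in the value of library 8 was not tested.

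IGFBP-7, which binds IGFs weakly and is found in the wall of blood vessels in mammals, is encoded by LOC118231216 on chromosome 7 from 25194038 to 25205381. It had 93.0, 156 and 44.7 normalized counts in oocytes before P and 1.12, 0 and 0 in eggs after P. The 416 counts of the oocytes against 1 in the eggs gave a 260-fold lower level with a 95% exact counting interval of 46.4 to 10293 (adjusted p = 0.000198, edgeR). In oocytes before DHP it had 111, 72.1 and 31.1, and in eggs after DHP 2.32, 16.7 and 0, with library 8 again the highest. The groups did not overlap, but the change of -3.55 ± 1.07 on the log2 scale was not past the threshold (edgeR, adjusted p = 0.0296). Without library 8 it was -5.76 (adjusted p = 0.00907, edgeR).

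**Figure D2:**
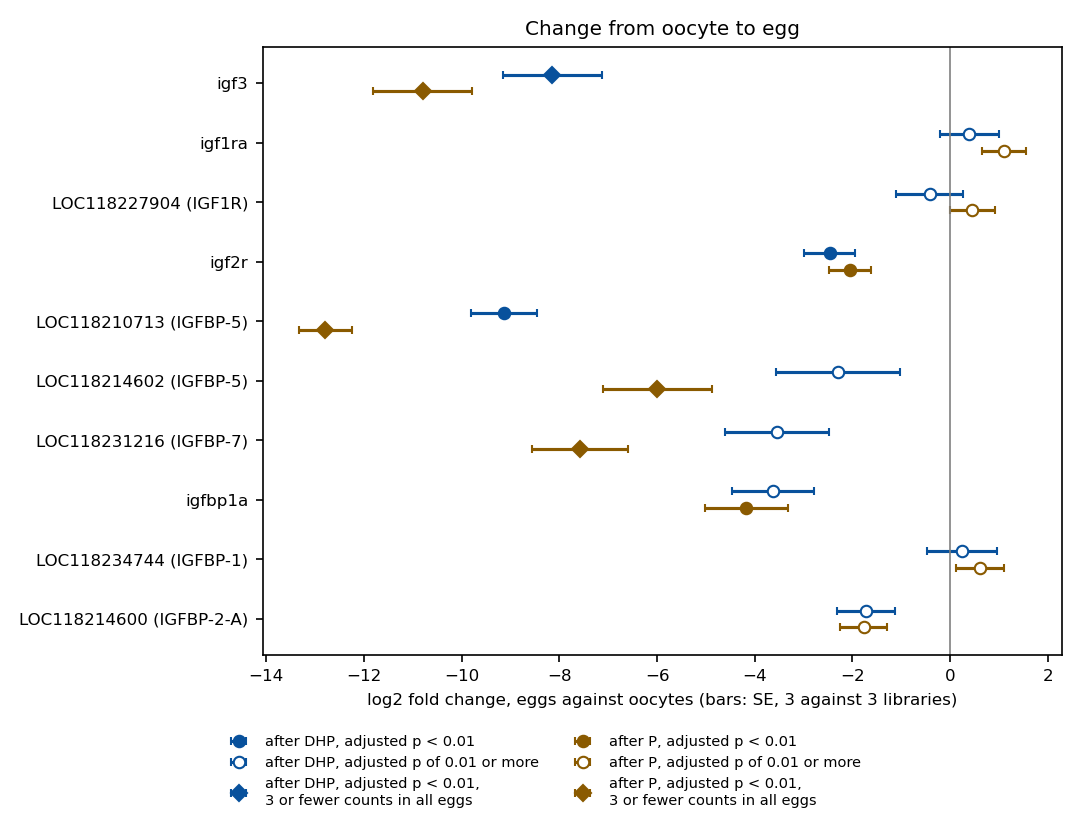
Log2 fold change of eggs against oocytes for the 10 members tested in both treatments, with bars for the SE of 3 against 3 libraries. Filled symbols had an adjusted p under 0.01, and diamonds stand for genes with 3 or fewer counts over all eggs of the treatment, whose fitted value depends on the small count added by the program. igf3, igf2r and LOC118210713 are filled in both treatments, and the type 1 receptor genes are open in both, igf1ra at 1.1 after P and 0.39 after DHP.

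The IGFBP-1 genes did not move together. In fish and mammals IGFBP-1 is known as a binding protein that rises in starvation and stress. igfbp1a (chromosome 4 from 64634149 to 64646897) had 22.9, 65.8 and 28.3 normalized counts in oocytes before P against 1.12, 1.19 and 4.20 in eggs after P, a DEG that changed by -4.17 ± 0.85 on the log2 scale (edgeR, adjusted p = 0.00230). In oocytes before DHP it had 85.6, 36.0 and 78.7, and in eggs after DHP 1.16, 11.5 and 4.26. That change of -3.63 ± 0.83 just missed the threshold (edgeR, adjusted p = 0.0109), while DESeq2 called it (adjusted p = 0.000143). The P call was lost without library 2, 5 or 6 (highest adjusted p = 0.0135) and with scaling on oocyte markers (adjusted p = 0.0262), and the DHP change became a DEG without library 8 (adjusted p = 0.00962). On the assembly this gene overlaps igfbp3 by 4454 bases, so their counts may not be fully separate, but igfbp3 itself had only 33 counts. LOC118234744, the other IGFBP-1 gene, lies on chromosome 8 from 11073026 to 11075560, with 2391 bases between it and the IGFBP-3 gene LOC118233164. It had 23.6, 39.0 and 44.7 normalized counts in oocytes before P and 56.0, 52.2 and 58.9 in eggs after P, which lay above all oocytes without passing the threshold (log2 fold change 0.62 ± 0.49, adjusted p = 0.305 from edgeR). After DHP the eggs spread from 18.5 in library 4 through 47.4 in library 8 to 115 in library 12, wider than the oocytes at 30.0, 45.1 and 70.5 (log2 fold change 0.25 ± 0.72, adjusted p = 0.809 from edgeR). With total counts its value was -0.40 after DHP and -0.13 after P, and with scaling on oocyte markers it was a DEG higher in eggs after P (2.27, adjusted p = 0.00287 from edgeR), where 6512 of all genes were higher.

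IGFBP-2, a widely expressed carrier of IGFs in fish plasma and tissues, is encoded by LOC118214600 (annotated as IGFBP-2-A), which lies on chromosome 15 from 2668835 to 2697839, with 4811 bases between it and the IGFBP-5 gene LOC118214602. It had 155, 95.1 and 72.1 normalized counts in oocytes before P and 35.9, 35.6 and 23.8 in eggs after P. In oocytes before DHP it had 57.8, 64.1 and 95.9, and in eggs after DHP 32.4, 25.6 and 11.4. All eggs were below all oocytes in both treatments, but the changes of -1.77 ± 0.48 after P (adjusted p = 0.0106) and -1.72 ± 0.59 after DHP (adjusted p = 0.0492) on the log2 scale were not past the threshold in edgeR. With the libraries of oocytes and eggs paired as a block, the change after P was a DEG (log2 fold change -1.73, adjusted p = 0.00476 from edgeR). Its neighbour LOC118214602 was at 0 in 4 of the 6 egg libraries, whereas LOC118214600 was found in all 6.

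igfbp6b, for a binding protein that prefers IGF-II, lies on chromosome 11 from 34934103 to 34941109 and was too low to be tested. Its normalized counts were 13.7, 2.55 and 3.65 in oocytes before P and 1.12, 1.19 and 0 in eggs after P. Before DHP they were 15.8, 1.0 and 7.37, and after DHP 0, 2.56 and 0, so that the groups overlapped. From 26 counts against 2 after P the level was 8.12-fold lower in eggs (95% exact counting interval 2.03 to 70.6, or 3.74-fold without library 1), and from 31 against 2 after DHP it was 10.8-fold lower (2.75 to 93.2, or 5.59-fold without library 3).

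Of the 10 members tested, 6 were DEGs lower in eggs after P, while 22.7% of all 15348 genes tested were lower and 17.9% higher. After DHP 3 of the 10 were lower, while 6.22% of 15149 genes were lower and 7.35% higher. In neither treatment was a member called higher by edgeR, DESeq2 or limma-voom with their own scaling, although 3 were after P with scaling on oocyte markers, where 4 were lower. That scaling called 6512 of all genes higher after P and 1199 lower. At an unadjusted p under 0.05, 8 of the 10 members differed after P, beside 9372 of the 15348 genes, and 6 after DHP, beside 6954 of 15149. All 3 egg libraries lay below all 3 oocyte libraries in 7 of the 10 members after P, against 36.7% of all genes, and in 7 after DHP, against 27.3%. On the log2 scale the median of the members was -3.11 after P and -2.38 after DHP, beside -0.26 and -0.20 for all genes. LOC118210713, igf3, LOC118231216, LOC118214602 and igfbp1a had 1, 0, 1, 2 and 5 counts over the P eggs. Over the DHP eggs they had 20, 3, 15, 22 and 13. These members thus passed the filter in both treatments through their oocyte counts alone. Genes that enter in this way can be called lower in eggs but hardly higher. The shares and medians of the members beside all genes are therefore a description and no test of direction. The filter was the same for all genes. The DHP count was 5 with DESeq2 and 6 at a threshold of 0.05. Leaving out library 8 raised it to 5, and leaving out library 12 reduced it to 1, LOC118210713. Over all genes, 943 were lower in the main test, 2212 with DESeq2, 2755 at 0.05, 961 without library 8 and 57 without library 12.

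The level left in the eggs was set beside that of marker genes of other cell types. Per egg library, igf3 was at 0% to 1.01% of the oocyte mean of its treatment and LOC118210713 at 0% to 0.215%. Follicle cell markers without LOC118214003 were at 0.856% to 1.67% in the P eggs and 1.57% to 4.54% in the DHP eggs, vessel and smooth muscle markers at 1.37% to 3.07% and 1.05% to 6.13%, and stroma markers at 3.62% to 4.83% and 9.9% to 12.3%. Blood markers kept more as a sum, at 17.6%, 12.2% and 73.7% in P egg libraries 2, 6 and 10 and 13.7%, 36.1% and 66.7% in DHP egg libraries 4, 8 and 12. Genes of this list differed. For P the hemoglobin genes LOC118216919 and LOC118216920 went from 96 to 0 and from 73 to 2 counts, while LOC118216921 went from 113 to 103. The stroma sums of oocytes and eggs were led by different collagen genes. LOC118214884 made up 95.8% (P) and 85.0% (DHP) in oocytes, and its mean went from 26975 to 4.22 normalized counts for P and from 10590 to 134 for DHP. LOC118231824 made up 56.2% (P) and 44.5% (DHP) in eggs, where its mean was higher than in oocytes. Also higher were si:ch211-196i2.1 (47.6 to 388 for P, 87.5 to 435 for DHP) and si:dkey-61l1.4 (8.65 to 102 and 9.53 to 100). Of the stroma genes tested, 3 were DEGs higher and 6 lower after P, and 2 and 3 after DHP. The mean of col1a2 went from 379 to 0 for P and from 679 to 7.35 for DHP. Among the follicle markers, 7 of 19 had any count in the P eggs and 16 of 19 in the DHP eggs. The transcripts of inha (inhibin alpha) and of the potassium channel genes kcnj8 and abcc9, which mark pericytes, were at 0 in both groups of eggs. Aromatase (LOC118215725), fshr, lhcgr, star and foxl2a were at 0 in the P eggs and had 1, 6, 3, 2 and 11 counts in the DHP eggs. Other markers stayed in the eggs. The follicle gene LOC118215491 went from a mean of 1453 to 109 normalized counts for P and from 1344 to 125 for DHP. The vessel gene cdh5 went from 51.2 to 18.1 and from 106 to 24.8, and kdr from 24.4 to 9.85 and from 24.9 to 9.14. The sum of the oocyte markers was at 31.0% to 50.3% of the oocyte mean in the eggs, where 19 of 34 were DEGs lower and 1 higher after P, and 11 lower and 1 higher after DHP. Of the follicle markers tested, 12 of 14 were DEGs lower in eggs after P, beside 22.7% of all genes, and 1, LOC118214003, was higher. After DHP 8 of 11 were lower, beside 6.22% of all genes. The count became 4 of 14 without library 4, 3 of 12 without library 7 and 1 of 14 without library 12. Over all genes, 943 were lower in the main test, and 218, 127 and 57 without those libraries. Follicle markers such as inha, star, lhcgr and foxl2a, at 0 in the P eggs, passed the filter for P through their oocyte counts alone. For DHP the same holds for LOC118218511 and hsd17b1, with 1 and 2 counts in the eggs. Such markers could hardly be called higher, so the shares of this list are a description and no test of direction. The part of lost follicle, vessel and stroma cells in the fall of the members was not tested.

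**Figure D3:**
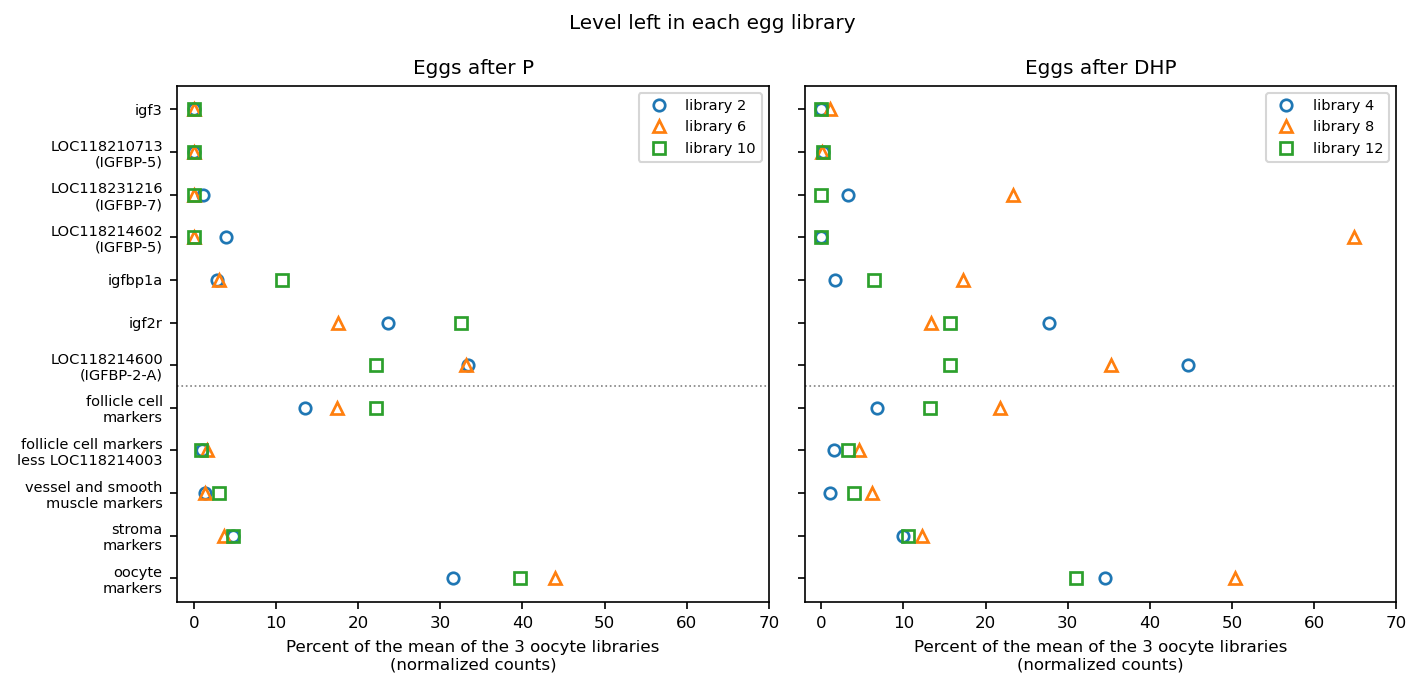
Level in each egg library as a percent of the mean of the 3 oocyte libraries of the same treatment (normalized counts), for the 7 members whose eggs all lay below the oocytes in both treatments, and for the summed marker lists below the dotted line. Library 8 is the highest DHP egg for LOC118214602 (64.9%), LOC118231216 (23.3%) and igfbp1a (17.3%), and for the follicle and vessel lists. The blood list, highest in library 12 among the DHP eggs, is not drawn.

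Between eggs stripped after P and eggs stripped after DHP, no member was a DEG. Only 5 of the 11 had enough counts in the eggs to be tested, and 0% of 13178 genes passed in edgeR (602 at an unadjusted p under 0.05). The widest difference was that of igf1ra, whose P eggs (121 to 181) all lay above the DHP eggs (32.4 to 108), a difference of 0.99 on the log2 scale (95% interval -0.17 to 2.16, adjusted p = 0.984 from edgeR). For igf2r it was 0.20 (-1.18 to 1.59), for LOC118214600 0.50 (-0.95 to 1.95), for LOC118227904 0.71 (-0.74 to 2.17) and for LOC118234744 -0.07 (-1.55 to 1.40). DESeq2 and limma-voom called none of the 5 either, and none of the 5 had an unadjusted p under 0.05. At their upper ends the intervals of igf1ra and LOC118227904 reach 2.16 and 2.17, sizes that these libraries do not exclude. The 6 members not tested here were those with few or no counts in eggs, such as LOC118210713 with 20 counts after DHP and 1 after P.

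The oocytes of both treatments, sampled before any steroid was injected, did not differ in a member either. All 10 members were tested, 0% of 16153 genes passed in edgeR (494 at an unadjusted p under 0.05), and none of the 10 had an unadjusted p under 0.05. igf3 had the largest difference, with 160 to 562 normalized counts before DHP and 104 to 270 before P (0.87 on the log2 scale, 95% interval -0.26 to 2.00, adjusted p = 0.999 from edgeR). For LOC118210713 it was 0.33 (-0.63 to 1.29), with library 11 at 1653 and the other 5 oocyte libraries between 2966 and 6238. DESeq2 and limma-voom called none.

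The change from oocyte to egg was next compared between the treatments with all 12 libraries in the same fit, where 0% of 16891 genes passed (700 at an unadjusted p under 0.05). None of the 10 members tested passed in edgeR, DESeq2 or limma-voom, and 2 had an unadjusted p under 0.05. The fall of LOC118210713 was larger after P by -3.70 on the log2 scale (95% interval -6.09 to -1.30, unadjusted p = 0.00514 from edgeR), and that of LOC118231216 by -4.08 (-7.69 to -0.47, unadjusted p = 0.0293 from edgeR). Both rest on single counts in the P eggs. For LOC118210713 all 3 DHP eggs (6.41 to 9.94 normalized counts) lay above all 3 P eggs (0 to 1.12). For igf3 (-2.65) and LOC118214602 (-3.78) the sign turned without library 8, to 0.88 and 2.54. That 6 members were DEGs after P and 3 after DHP is therefore not shown to be a difference between the steroids.

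The genes that pass the IGF signal on within the cell did not share a direction. The list of insulin and IGF signalling held 66 genes, from the insulin receptor and its substrates through phosphatidylinositol 3-kinase and AKT to mTOR and the FOXO factors. After P 12 of 59 tested (20.3%) were DEGs higher in eggs and 10 (16.9%) lower, close to the 17.9% and 22.7% of all genes. After DHP 7 of 58 (12.1%) were higher and 4 (6.90%) lower, beside 7.35% and 6.22%. The median of the list was -0.08 after P and 0.12 after DHP on the log2 scale. With the libraries paired as a block 16 were higher and 12 lower after P, and 9 and 5 after DHP. Over all genes the paired block called 3380 higher and 4084 lower after P, and 1381 and 1351 after DHP. The split moved with the scaling, as it did over all genes. After P it was 8 higher and 18 lower by total counts (1295 and 5205 of all genes) and 29 and 1 on oocyte markers (6512 and 1199 of all genes). After DHP it was 4 and 9 by total counts (490 and 2105) and 18 and 1 on oocyte markers (4543 and 326). After DHP none of the list was called without library 7, 11 or 12, where the calls over all genes fell from 1114 higher and 943 lower to 65 and 127, 124 and 241, and 65 and 57.

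Of the first kinases below the receptor, some genes rose and the others did not pass the test. For the catalytic subunits of phosphatidylinositol 3-kinase 1 of 4 was higher in both treatments, for PDK1 2 of 2, and for AKT 2 of 6 after P and 1 of 6 after DHP, with 0 lower in each class. Over all genes tested, 17.9% were higher after P and 7.35% after DHP, and classes this small give no firm share. The values of those not called reached down to -1.74 after P, for the AKT gene LOC118236468 (adjusted p = 0.0177 from edgeR). pik3cb, a catalytic subunit of phosphatidylinositol 3-kinase, rose from 297 ± 126 to 7280 ± 1046 normalized counts (SD, n = 3) after P, by 4.59 ± 0.38 on the log2 scale (edgeR, adjusted p = 2.43e-05). After DHP it rose by 3.16 ± 0.64 (edgeR, adjusted p = 0.00698). pdpk1b, for the kinase PDK1 that activates AKT, rose from 183 ± 55.1 to 1691 ± 279 after P (log2 fold change 3.19 ± 0.32) and from 298 ± 93.0 to 1569 ± 487 after DHP (2.33 ± 0.39). LOC118217213, a second gene for this kinase, rose by 3.14 ± 0.38 after P and 2.66 ± 0.44 after DHP on that scale, and akt1 by 2.29 ± 0.29 and 1.87 ± 0.41. Among the kinases that AKT inhibits, gsk3ab rose from 274 ± 119 to 3888 ± 673 after P (3.80 ± 0.35) and from 541 ± 302 to 3573 ± 614 after DHP (2.66 ± 0.42). LOC118233763, annotated as glycogen synthase kinase-3 beta-like, rose from 79.1 ± 48.6 to 5157 ± 1754 after P (5.99 ± 0.53). Other genes of this kinase family went the other way after P, gsk3ba (-3.87 ± 0.97) and LOC118214338 (-1.88 ± 0.63, adjusted p = 0.0273 from edgeR). The genes named here as rising were DEGs in both treatments, while gsk3ba was a DEG after P only. With scaling by total counts the DHP calls of pik3cb and akt1 were lost.

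**Figure D4:**
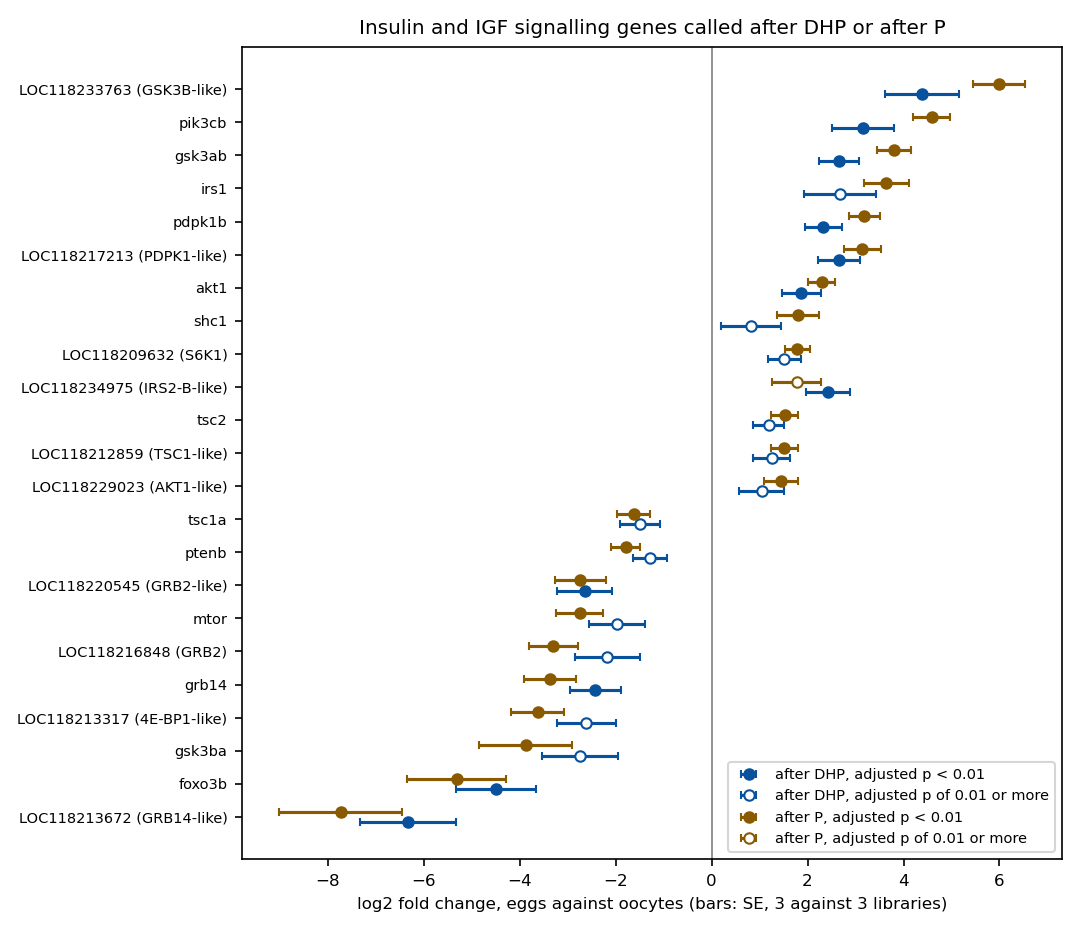
Log2 fold change of eggs against oocytes for the 23 genes of the insulin and IGF signalling list that were DEGs in at least 1 treatment, with bars for the SE of 3 against 3 libraries. Filled points had an adjusted p under 0.01. pik3cb, akt1 and the genes of PDK1 lie to the right of 0 and those of GRB14, FOXO3 and mTOR to the left, with the same side in both treatments for each of the 23.

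Among the genes that fell were adaptors and a transcription factor. grb14, whose product inhibits the insulin receptor in mammals, went from 206 ± 109 to 20.0 ± 8.64 normalized counts after P (log2 fold change -3.37 ± 0.55), and it was a DEG after DHP as well (-2.42 ± 0.53). LOC118213672, a GRB14-like gene, had -6.33 ± 0.99 after DHP, from 42.3 ± 5.52 to 0.427 ± 0.740, and -7.73 ± 1.28 after P. foxo3b, for a FOXO factor that AKT keeps out of the nucleus, had -4.49 ± 0.84 after DHP, from 67.0 ± 42.6 to 3.04 ± 1.99, and -5.31 ± 1.03 after P. LOC118213317, annotated as an inhibitor of the cap-binding protein eIF4E, fell from 137 ± 66.2 to 11.2 ± 3.13 after P (-3.62 ± 0.55), and mtor had -2.75 ± 0.50 after P, while after DHP these genes had -2.61 ± 0.62 (adjusted p = 0.0123) and -1.96 ± 0.58 (adjusted p = 0.0287 from edgeR). Other genes for inhibitors of eIF4E differed, and those given here were not DEGs. LOC118206198, annotated like LOC118213317, had 0.94 after P (adjusted p = 0.0168) and 1.18 after DHP (adjusted p = 0.0342, both from edgeR). eif4ebp2 had -0.12 after P and -0.55 after DHP, and LOC118235279 had -3.66 and -1.48. With scaling on oocyte markers the calls of grb14 and foxo3b were lost in both treatments, and those of mtor and LOC118213317 after P.

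Of the list of IGFBP proteases and their inhibitors (11 genes, 4 tested), a single gene was a DEG in each treatment, lower in eggs, beside 22.7% of all genes after P and 6.22% after DHP. LOC118221524, for the serine protease HTRA1B, of a family that cleaves IGFBP-5 in mammals, fell from 2286 ± 2025 to 15.7 ± 2.76 normalized counts after P (log2 fold change -7.18 ± 0.74, adjusted p = 5.92e-05 from edgeR) and from 898 ± 1090 to 18.6 ± 13.5 after DHP (-5.66 ± 1.19, adjusted p = 0.00787 from edgeR). Its SD among the oocytes was as large as its mean or nearly so, and the DHP call was lost with limma-voom and when library 4, 7, 8, 11 or 12 was left out. LOC118213402, for pappalysin-1, which frees IGF by cutting IGFBPs, had -3.28 after DHP (adjusted p = 0.0168) and -2.23 after P (adjusted p = 0.0375). LOC118235923, for stanniocalcin-2, an inhibitor of pappalysin in mammals, had 2.10 after P (adjusted p = 0.0119 from edgeR). The main test called 0 genes of the list higher in either treatment. After P, the paired block, RLE scaling, DESeq2, scaling on oocyte markers and a threshold of 0.05 each called 1. Over all genes these settings called 2889 to 6512 higher, beside 2744 in the main test. After DHP, scaling on oocyte markers called 2. With that scaling 6512 of all genes were higher after P and 4543 after DHP.

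The list of the growth hormone axis, which drives IGF-I production in the liver, held 11 genes. After DHP 1 of 6 tested was a DEG, LOC118212918, for the growth hormone receptor, which went from 55.7 ± 25.4 to 3.30 ± 2.29 normalized counts (log2 fold change -4.08 ± 0.78, adjusted p = 0.00557 from edgeR). After P 2 of 5 were lower, LOC118212588, for the receptor kinase JAK2 (-2.75 ± 0.71, adjusted p = 0.00824), and LOC118231801, for the feedback inhibitor SOCS2 (-1.55 ± 0.38, adjusted p = 0.00644, both from edgeR). The shares lower over all genes were 6.22% and 22.7%. These calls were fragile. After DHP 0 of the list were called when any 1 of the 6 libraries was left out or in 1 fit of all 12. After P 0 were called without library 1, 2, 5, 6 or 9. The paired block called 3 lower after P, and 4084 of all genes, beside 3483 in the main test. With scaling on oocyte markers 0 genes of this list were called in either treatment, and LOC118231801 turned to a positive value after P.

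The genes whose level followed that of igf3 most closely over the 12 libraries were LOC118232418, a neutral amino acid transporter-like gene (Pearson r = 0.992 on a log scale of scaled counts), LOC118220432, annotated as a hydroxylase of sialic acid (0.987), cx43, for the gap junction protein connexin 43 (0.987), id2a, for an inhibitor of DNA binding (0.987), and LOC118207277 (0.985), among 16891 genes. For LOC118210713 they were LOC118235288, a transmembrane 9 superfamily gene, and LOC118231252, an uncharacterized gene (both 0.993), lingo1a (0.993), ocel1 (0.992) and si:ch211-15d5.11 (0.992). The 6 oocyte and 6 egg libraries form separate groups for these genes, so the values describe the shared step between oocyte and egg.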

How the data were processed

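The count values were deposited by the authors as whole fragments per gene. Per the methods and the submitters' notes, reads of stranded poly(A) libraries were aligned to fAngAng1.pri (TopHat 2.0.13), secondary alignments were dropped (SAMtools 1.2) and fragments were counted (HTSeq 0.6.1p1). Whether counting used strand is not stated in the sources used here. The authors' scaled means, fold changes and p-values (DESeq) stood in the same tables and were not used. 0 columns of per-sample counts were left unused. Reads from poly(A) RNA do not separate a change in amount from a change of the tail.

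Each pair of groups was fitted in its 6 libraries with edgeR 4.0.16 in R 4.3.3 (TMM, filterByExpr with minimum count 10 and minimum total 15), and the difference between treatments in all 12. DESeq2 1.42.0, limma 3.58.1 (voom), other scalings, no filter, 1 fit of all 12 libraries, a threshold of 0.05 and each library left out were alternatives. Results were tabulated with Python 3.11.15 and pandas 2.3.3, and the fits were tested on simulated data (seed 20230701).

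According to the study's methods, oocytes and eggs came from the same 3 females per treatment. The columns name groups but no replicate, so libraries were paired by their order (1 and 2, 5 and 6, 9 and 10, 3 and 4, 7 and 8, 11 and 12). Deviations from the group means correlated with r = 0.268 to 0.405 within these pairs and -0.290 to -0.0637 across other combinations, and the pairs were accepted on that basis. The deviations of the 3 libraries of a group sum to 0. Positive values within pairs thus bring negative ones across, which are no separate evidence for the pairs. The groups were compared unpaired, as the authors did.

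The members and gene lists were chosen with earlier results of these data known. All members with 50 or more counts are named with values, and of the pathway lists at most 4 DEGs per comparison by lowest p, plus at most 3 that ran counter to the main direction. Other genes of the lists, such as akt1, mtor and LOC118213402, were named after their values were seen. Positions are whole gene spans from a RefSeq table of the same assembly, which held all 23 gene IDs. Sequences and exon lengths were not used here.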

Additional observations from a re-analysis of the deposited data

How the results depend on the processing

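After DHP, the number of members lower in eggs was 6 at a threshold of 0.05 and 5 with DESeq2, and ran from 1 to 5 with a library left out. Over all genes it was 2755 at 0.05 and 2212 with DESeq2, and 57 to 961 with a library left out. After P, scaling on oocyte markers called 3 members higher, and 6512 of all genes. With the replicate block (paired libraries) 7 members were lower after P and 3 after DHP, and beside LOC118214600 after P it changed no member's call. Over all genes the block called 4084 lower after P and 1351 after DHP, beside 3483 and 943 in the main test. The signalling list after DHP had 13 genes higher and 10 lower at 0.05, 12 and 9 with DESeq2 and 12 and 7 in 1 fit of all 12 libraries. Over all genes the counts after DHP were 2390 and 2755 at 0.05, 2254 and 2212 with DESeq2 and 1970 and 1618 in that fit. The cause of these shifts was not tested.

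Among the members, signs turned only in values that were not called. Of the DEGs of the pathway lists, LOC118231801 and tsc1a turned sign after P with scaling on oocyte markers. With total counts igf1ra had -0.24 after DHP, LOC118227904 -0.29 after P and LOC118234744 -0.40 after DHP and -0.13 after P. With scaling on oocyte markers LOC118227904 had 1.43 after DHP and -0.15 between oocytes, and LOC118234744 had 0.13 between eggs. LOC118234744 also had -0.077 (limma-voom) and -0.015 (paired block) after DHP and 0.33 (limma-voom) between eggs, and LOC118214600 had 0.0065 without a filter in the difference between treatments. With a library left out, log2 fold changes ran from -1.32 to 0.0025 for LOC118227904 and -0.64 to 0.70 for LOC118234744 after DHP. Between eggs they ran from -0.023 to 0.63 for igf2r and -0.49 to 0.86 for LOC118234744. Between oocytes they ran from -0.034 to 0.34 for igf2r, -0.47 to 0.17 for igf1ra, -0.20 to 0.35 for LOC118227904, -0.93 to 0.059 for LOC118231216 and -0.75 to 0.49 for LOC118214602. In the difference between treatments they ran from -3.26 to 0.88 for igf3, -0.43 to 0.34 for LOC118214600, -0.10 to 1.2 for LOC118234744, -1.40 to 0.47 for igfbp1a and -6.72 to 2.54 for LOC118214602. In all, 642 of the members' values under an alternative kept direction and call, 19 gained and 16 lost the call, and 33 turned sign. Depth limits the egg values, since 5 of the 11 members had 3 or fewer counts over the P eggs.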
